A study of Mus musculus with 4 samples.

Results

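Classical monocytes of the mouse ovary were picked out of single-cell RNA counts by a gate on raw UMIs (unique molecular identifiers, each marking 1 captured RNA molecule). A cell entered with at least 4 UMIs of Ly6c2 and Chil3 together, at least 10 of Lyz2, at most 1 of Ace and Ear2 together, fewer than 10 of C1qa, C1qb and C1qc together, fewer than 20 of S100a8 and S100a9 together, at most 1 of Cd209a and at most 2 of Arg1. It also needed at least 500 genes, at least 1000 UMIs, at most 10% mitochondrial UMIs, and a leading hashtag with at least 10 counts and at least 3 times the next. This gave 264 of the 6281 kept cells, or 4.203%. The cells were chosen by the UMI counts of the 12 genes of the gate, so their levels are described here and no test of them is read.

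The cells were CD45-positive, CD11b-positive leukocytes sorted from ovaries of virgin wild-type C57BL/6J females labelled 15 months and 3 months. Each age had 3 hashtag pools, numbered 1 to 3, that were joined before 1 sort and 1 droplet library, so age and library cannot be told apart. The protocol gives 5 mice harvested at 14 to 17 months, with 1 pool from a single animal, and 6 mice harvested at 2 to 3 months, whereas the series text gives 2 mice for every pool. A pool was the unit of replication, and p-values measure the spread between pools inside a library, not between libraries.

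Classical monocytes are made in the bone marrow, leave it through the chemokine receptor Ccr2, carry high Ly6C at their surface, and turn into macrophages or antigen-presenting cells once they have entered a tissue. Non-classical monocytes, which patrol the vessel wall, are derived from them with loss of Ly6C and Ccr2. Both circulate in blood, so a sort from digested ovary can hold cells from tissue and from retained blood.

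The libraries held 45060166 gene UMIs over 4939 barcodes at 15 months and 27277073 over 3135 barcodes at 3 months, of which 4100 and 2181 cells were kept. In both libraries 3 barcodes occurred, none of them in a classical monocyte. The 215 classical monocytes of 15 months lay 27, 151 and 37 to a pool and the 49 of 3 months 25, 13 and 11 to a pool, numbered 1, 2 and 3. Their median depth was 7504, 8226 and 9035 UMIs in the 15-month pools and 7083, 6944 and 6039 UMIs in the 3-month pools, which do not overlap. Median mitochondrial UMIs were 1.93 to 2.14% at 15 months and 1.54 to 1.64% at 3 months.

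The gate genes gave the cells their outline. At the lower edge, 29 members had 4 or 5 UMIs of Ly6c2 and Chil3 together, and 61 cells stayed outside with 2 or 3 UMIs although they met every other limit. The limit on C1q alone kept out 142 cells, 129 of them from the 15-month library, and the limit on Arg1 alone kept out 58 cells, 16 of them from the 15-month and 42 from the 3-month library. Ly6c2, the surface Ly6C antigen, had a UMI in 87.4% of the 15-month members and 93.9% of the 3-month members. Chil3, a secreted chitinase-like protein of myeloid cells, had a UMI in 81.9% of the 15-month and 59.2% of the 3-month members, with a median of 7 UMIs at 15 months and 1 UMI at 3 months.

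Genes outside the gate placed most of these cells with classical monocytes. Levels are in CPM, a gene's UMIs in the summed cells of a pool scaled to the same total for every pool, given as mean ± SD over all 6 pools. Plac8, a marker shared by monocytes, stood at 3510.1 ± 478 CPM in classical monocytes and 2239.8 ± 373 CPM in non-classical monocytes, which were gated on at least 4 UMIs of Ace and Ear2. Hp, the haemoglobin scavenger haptoglobin, stood at 685 ± 139 CPM against 327 ± 93.9 CPM, and Ccr2 at 703 ± 174 CPM against 161 ± 79.8 CPM. F13a1, coagulation factor XIII A, stood at 423 ± 94.1 CPM against 14.7 ± 13.3 CPM. Plac8, Ccr2 and F13a1 were higher in classical monocytes in all 6 pools, and Hp in 5 of 6. Ly6c1, a neighbouring gene of the same family, stayed at or below 5.42 CPM in every pool of classical monocytes.

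The opposite marks were low. Treml4 stood at 20.5 CPM in classical monocytes and 369 CPM in non-classical monocytes, Spn, the sialophorin CD43, at 29.8 and 407 CPM, and Nr4a1, the nuclear receptor needed for non-classical monocytes, at 564 and 1599.5 CPM, each lower in all 6 pools. Of the 1649 genes at 100 CPM or more in either class, 254 (15.4%) were higher and 327 (19.8%) lower in classical monocytes in every pool, as a description of cells that the gates had separated. Fcgr1, the high-affinity Fc gamma receptor CD64, stood at 290.2 and 49.6 CPM, and Fcgr4, a receptor of non-classical monocytes, at 81.4 and 400.1 CPM. Against macrophages gated on at least 30 C1q UMIs, 419 of 1570 genes (26.7%) were higher and 299 (19%) lower in every pool. Plac8 stood at 3510.1 CPM in classical monocytes and 55.4 CPM in C1q macrophages and Hp at 685 CPM against 15.3 CPM, both higher in classical monocytes in 6 of 6 pools. Mrc1, the mannose receptor, stood at 56.5 CPM against 304 CPM in C1q macrophages and Adgre1, the F4/80 antigen, at 133 CPM against 238 CPM.

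**Figure D1:**
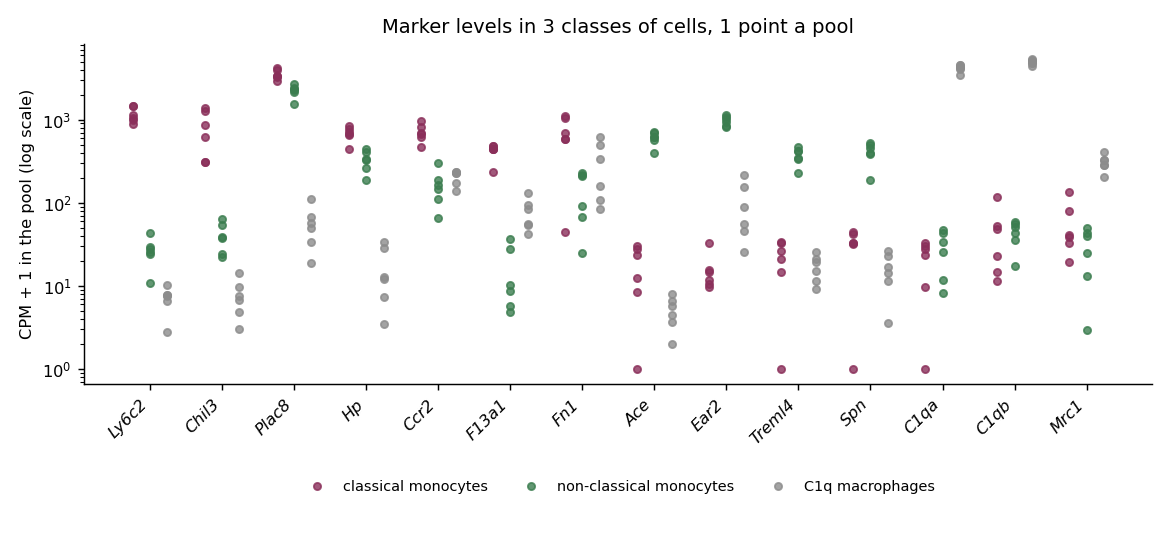
Levels of 14 marker genes in classical monocytes, non-classical monocytes and C1q macrophages, 1 point for each of the 6 pools, as CPM plus 1 on a log axis. Plac8 and Ccr2 lay above both other classes in classical monocytes, Fn1 was low in 1 of 6 pools, and the genes of the gate (Ly6c2, Chil3, Ace, Ear2, C1qa and C1qb) are shown as a description.

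Markers of most other cells were low, those of macrophages were not. Ly6g of neutrophils, the 3 mast cell and basophil markers Cpa3, Mcpt8 and Ms4a2, the B cell gene Ms4a1, 2 of 7 dendritic cell markers (Ccr7 and Zbtb46), and 3 of 4 platelet markers (Gp9, Itga2b and Ppbp) had no UMI in any member. The 7 dendritic cell markers summed to 35.6 to 65.9 CPM at 15 months and 10.8 to 21.1 CPM at 3 months. Pf4, the remaining platelet marker, had 21, 142 and 4 UMIs in the 15-month pools, against 0, 0 and 5 UMIs in the 3-month pools. The summed level of 7 neutrophil markers was 63.6 to 126 CPM at 15 months and 29.3 to 73.8 CPM at 3 months, and that of 5 NK cell markers 4.55 to 335 CPM at 15 months and 0 to 10.5 CPM at 3 months. The 5 B cell markers summed to 159.5 to 212 CPM at 15 months and 31.6 to 92.1 CPM at 3 months. The 8 macrophage markers, C1q and Apoe among them, were all present and summed to 6568 to 11006 CPM at 15 months and 2541 to 20349 CPM at 3 months. The 4 red cell genes summed to 18.2 to 31.5 CPM at 15 months and 477 to 674 CPM at 3 months.

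A minority of members went against the label. Of the 215 members of 15 months, 20 had no UMI of Plac8 (4, 13 and 3 in pools 1, 2 and 3), and of the 49 of 3 months 2 had none. The 20 cells were deep, with a median of 14265 UMIs, against 8131 UMIs in the 195 that had Plac8. Ly6c2 stood at 195 CPM in the 20 and 1167.2 CPM in the 195, Hp at 56.1 CPM in the 20 and 841 CPM in the 195, and Ccr2 at 129 CPM in the 20 and 955 CPM in the 195. The summed level of genes known from lipid-handling macrophages was higher in the 20 cells, 12 of which, with at least 5 Gpnmb UMIs each, carried most of it. Fabp5, a fatty acid carrier, reached 10073 CPM in the 20 against 188 CPM in the 195, Spp1, the secreted osteopontin, 9904 against 603 CPM, Trem2, a lipid receptor of macrophages, 795 against 123 CPM, Cd63, a lysosomal tetraspanin, 1498 against 31.6 CPM, and Apoe, a lipid carrier protein, 19063 against 6096 CPM. Those 12 cells held 3004 of the 3052 Fabp5 UMIs of the 20, 416 of 454 of Cd63 and 207 of 241 of Trem2. In the remaining 8, which are the cells under 5 Gpnmb UMIs, Fabp5 stood at 462 CPM and Trem2 at 327 CPM. Of the 20, 19 had a UMI of Chil3 and 11 of Ly6c2. The split was made after the data had been seen and is a description.

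**Figure D2:**
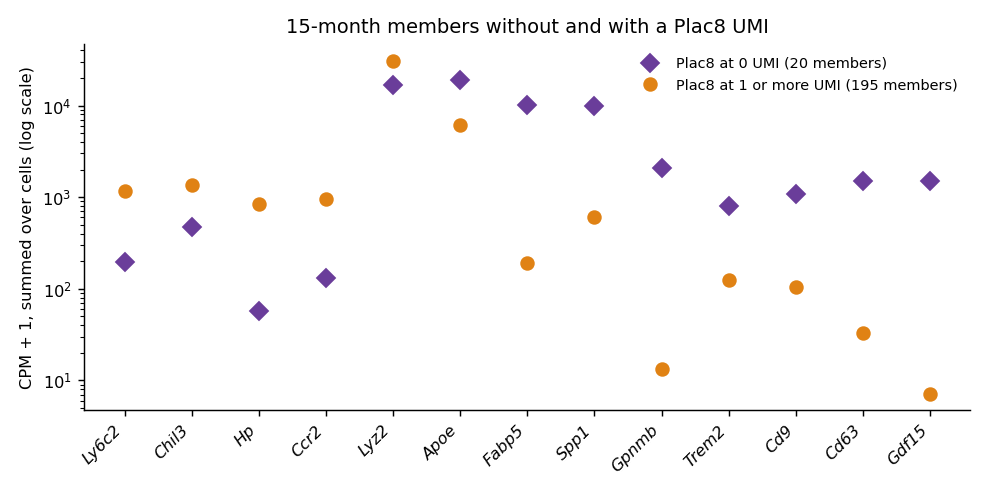
Level of 13 genes in the 15-month members without a Plac8 UMI (20 cells, diamonds) and with at least 1 (195 cells, circles), as CPM plus 1 of the summed cells on a log axis. Gpnmb, Fabp5, Spp1, Trem2, Cd9, Cd63 and Gdf15 lay higher without Plac8 and Ly6c2, Hp and Ccr2 lower.

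Classical monocytes made up a larger share of the 15-month pools, by an amount that did not pass the test. They were 27 of 767 kept cells in pool 1 (3.52%, Wilson 95% interval 2.43 to 5.07%), 151 of 2437 in pool 2 (6.20%, 5.31 to 7.22%) and 37 of 896 in pool 3 (4.13%, 3.01 to 5.64%) at 15 months. At 3 months they were 25 of 725 (3.45%, 2.35 to 5.04%), 13 of 479 (2.71%, 1.59 to 4.59%) and 11 of 977 (1.13%, 0.630 to 2.00%). The ages did not overlap, but the lowest 15-month pool and the highest 3-month pool lay within each other's counting error. The 15-month pools averaged 4.62 ± 1.40%, against 2.43 ± 1.19% for the 3-month pools (SD over 3 pools an age), with an exact two-sided permutation p of 0.1, the smallest that 3 against 3 pools can give. The quasi-likelihood test of edgeR gave a log2 ratio of 0.98 ± 0.46 (SE) with an adjusted p of 0.389 over 5 classes of cells. With no limit on Arg1 the log2 ratio was 0.09, since that limit kept out more 3-month than 15-month cells. Intervals cover counting error only, and a share of sorted cells says nothing of the number of cells in the ovary.

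**Figure D3:**
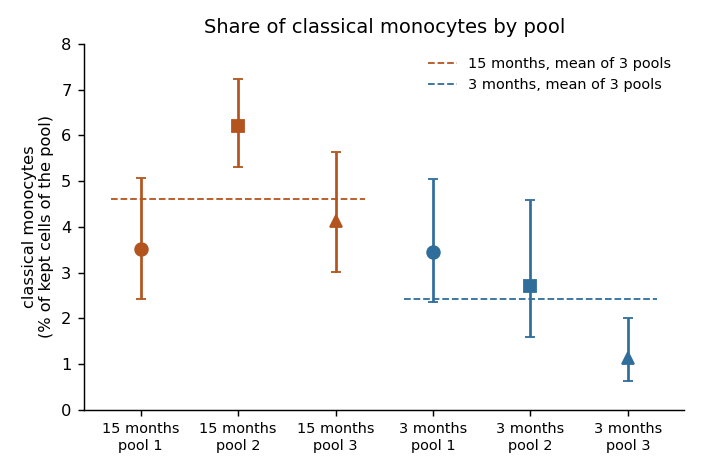
Share of classical monocytes among the kept cells of each pool in percent, 15-month pools left and 3-month pools right, with Wilson 95% intervals and the mean of each age as a dashed line. The 15-month pools lie at 3.52, 6.20 and 4.13% and the 3-month pools at 3.45, 2.71 and 1.13%.

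The age comparison asked which genes differ inside the class. UMIs were summed over the members of each pool and tested with edgeR, which covered 2692 genes. Of these, 8 (0.297%) passed an adjusted p of 0.05: 3 (0.111%) higher at 15 months, Gpnmb, AY036118 and Gm42418, and 5 (0.186%) lower, among them Kpna4, Hbb-bs, Hba-a1 and Hba-a2. The median log2 ratio over all genes tested was 0.00, and 259 genes had an unadjusted p under 0.05. The pools of the 2 ages did not overlap in 438 genes (16.3%), 8.8% higher and 7.47% lower at 15 months. Without the first or the second 15-month pool 5 genes passed, without the third 3-month pool 45, and with DESeq2 on all pools 16.

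Kpna4, an importin alpha that carries proteins into the nucleus, fell in the 15-month cells. It stood at 111, 103 and 98.6 CPM in the 15-month pools, against 282, 239 and 227 CPM in the 3-month pools, in CPM scaled by TMM library size. From here on levels of single pools and their means by age were scaled in this way unless marked. Levels summed over all pools of an age, as for members with Plac8 and for lymphocytes, were unscaled, as were those of members split by MHC class II. The ages did not overlap, and the 15-month pools lay close together. The means were 104 ± 6.25 CPM at 15 months and 249 ± 29.0 CPM at 3 months (SD, n = 3), which gave a log2 ratio of -1.30 with an SE of 0.22 and, by edgeR, an adjusted p of 0.0119. Among members with a Plac8 UMI the log2 ratio was -1.28 ± 0.24 (adjusted p = 0.0276). Its counts were small, 22, 123 and 30 UMIs at 15 months and 48, 21 and 13 UMIs at 3 months, and the call was lost when any 15-month pool or the first 3-month pool was left out (adjusted p 0.0543 to 0.164). It was also lost with at least 3 Ly6c2 and Chil3 UMIs (0.0989) and with no limit on C1q (0.108). Thinning each cell to 3000 UMIs before the gate lost it as well (0.162). In these fits and with at least 8 Ly6c2 and Chil3 UMIs the log2 ratios lay from -1.17 to -1.11. Thinning left 5 pools with the 10 members needed for the fit, and at least 8 UMIs left 4 pools. With at least 8 UMIs pools 2 and 3 of 3 months had 7 and 6 members, so pool 1 was the only pool of that age. Depth, mitochondrial share and red cell RNA also differed between the ages without overlap, and their part in the result was not tested. It lies at chr3:69067149-69127113 (GRCm38, minus strand).

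Gpnmb, a lysosomal glycoprotein of lipid-laden macrophages, rose in the summed counts, and most of its UMIs lay in few cells. It stood at 398 (79 UMIs), 422 (503 UMIs) and 214 CPM (65 UMIs) in the 15-month pools, against 23.5 (4 UMIs), 0 and 17.4 CPM (1 UMI) in the 3-month pools. The log2 ratio was 4.44 ± 0.54 (adjusted p = 0.000837). Of the 647 UMIs at 15 months, 627 came from the 20 members without Plac8 and 634 from 13 members with at least 5 UMIs each. The other members held little: 20 UMIs in 195 cells with Plac8 at 15 months (12.4 CPM), and 1 UMI in 47 such cells at 3 months (3.07 CPM). Lymphocytes of the same libraries, gated on NK and T cell markers and not users of the gene, held 5.79 CPM at 15 months and none at 3 months. With the Plac8 limit Gpnmb no longer passed the filter on low counts, and its log2 ratio was 0.63 with at least 3 Ly6c2 and Chil3 UMIs, 1.41 with no limit on Arg1 and 1.91 with no limit on C1q, none of them called.

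Fabp5 and Cd63 followed the same cells. Fabp5 stood at 2088, 2175 and 1154 CPM at 15 months, against 153, 148 and 453 CPM at 3 months, a log2 ratio of 2.99 ± 0.51 with an adjusted p of 0.118. The 20 cells without Plac8 held 3052 of its 3356 UMIs at 15 months. In members with Plac8 its unscaled level was 188 CPM at 15 months and 159 CPM at 3 months. Cd63 had a log2 ratio of 1.89 ± 0.43 (adjusted p = 0.101), and in members with Plac8 it stood at 31.6 CPM at 15 months and 55.2 CPM at 3 months.

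**Figure D4:**
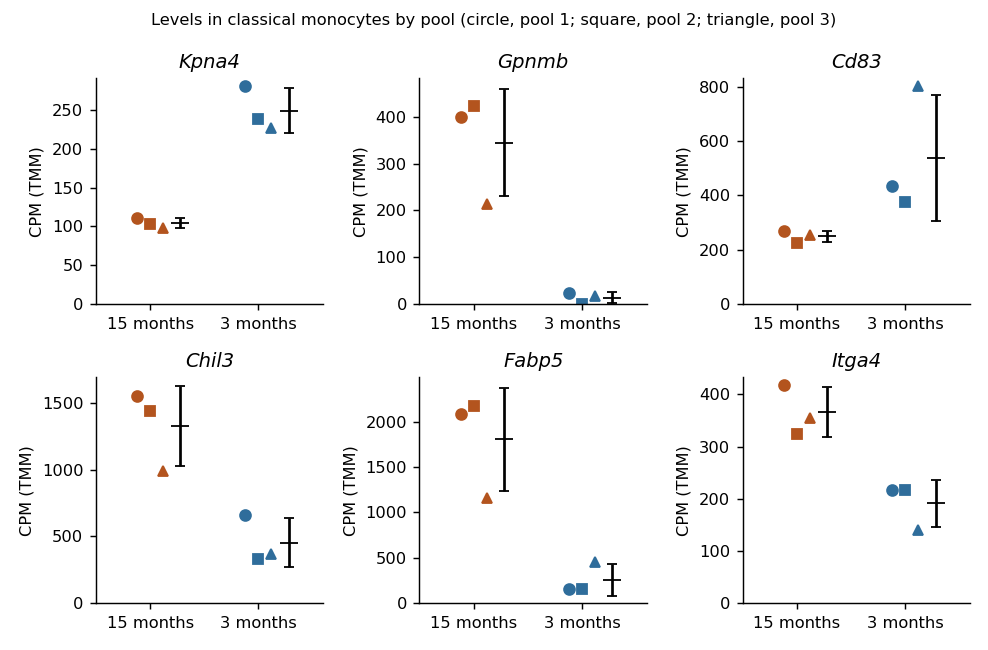
CPM scaled by TMM library size in classical monocytes of each pool for 6 genes, 15 months left and 3 months right, with mean and SD over 3 pools as a bar beside the points. Kpna4 lies lower in all 15-month pools and passed the test, Gpnmb lies higher and passed it, Chil3 is a gene of the gate whose test is not read, and Cd83, Fabp5 and Itga4 did not pass with all members.

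A further 5 calls were globins and a ribosomal RNA locus, the last named here although the naming rule leaves out such gene models. Hbb-bs, Hba-a1 and Hba-a2, the globins of red cells, were lower in every 15-month pool, with a log2 ratio of -4.25 ± 0.30 for Hbb-bs and only 1 to 8 UMIs of Hba-a1 and 0 to 2 of Hba-a2 in a 15-month pool. Hbb-bs had a UMI in 14.9% of the 15-month and 93.9% of the 3-month members, and in 10.3% of the 15-month and 82.1% of the 3-month lymphocytes. Median depths were 8333 UMIs at 15 months and 6944 at 3 months in the members, and 4115.5 at 15 months and 3135 at 3 months in the lymphocytes. Gm42418 stood at 7859.5 ± 509.6 CPM at 15 months and 1572 ± 144 CPM at 3 months (log2 ratio 2.32 ± 0.11). Gm42418, a locus with ribosomal RNA sequence at chr17:39846958-39848788, spans AY036118 at chr17:39847113-39848035 on the other strand, so reads of the pair may not be told apart. In lymphocytes Gm42418 stood, unscaled, at 10306 CPM at 15 months and 1715 CPM at 3 months. Their part in the other results was not tested, and without these and all globin, ribosomal protein and mitochondrial genes 3 calls were made.

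Among the genes that define the class, Chil3 stood at 1554, 1444 and 989 CPM at 15 months, against 663, 329.9 and 366 CPM at 3 months. The ages did not overlap, and as it is a gene of the gate no test of it is read. Ly6c2 stood at 1101 ± 86.5 CPM at 15 months and 1506 ± 258 CPM at 3 months, lower in every 15-month pool. Plac8 (log2 ratio -0.24 ± 0.12), Hp (0.22 ± 0.19), Ccr2 (0.52 ± 0.21), F13a1 (0.22 ± 0.21) and Fn1 (0.48 ± 0.81) did not pass, with adjusted p from 0.394 to 0.919.

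Gene lists for monocyte functions were read by their counts, beside 50.4% of all genes tested with a log2 ratio above 0. That share was 52.1% without the third 3-month pool and 47.3% among members with a Plac8 UMI. Of 27 monocyte transcription factors, 23 were tested, 9 were higher and 14 lower at 15 months with a median log2 ratio of -0.11, and 11 of 23 were higher without the third 3-month pool. Cebpb is a driver of monocyte survival and cytokine genes. It stood at 2329 ± 213 CPM at 15 months and 3256 ± 126 CPM at 3 months, without overlap (log2 ratio -0.48 ± 0.12, edgeR adjusted p = 0.118). Among the 23 factors tested 2 were higher and 4 lower without overlap, beside 16.3% of all genes tested that did not overlap. Irf8 (0.60 ± 0.29) and Klf4 (0.36 ± 0.24), factors of the monocyte lineage, did not pass. Of 18 adhesion and homing genes 17 were tested, with 8 higher and none called. In that list Itga4, the alpha subunit of the VLA-4 integrin, stood at 366 ± 47.9 CPM at 15 months and 191 ± 44.6 CPM at 3 months (log2 ratio 0.86 ± 0.24), Cxcr4, a marrow retention receptor, at 179 ± 47.1 CPM at 15 months and 357 ± 129 CPM at 3 months (-0.96 ± 0.28), and Ccr1, a receptor of inflammatory chemokines, at 168 ± 43.2 CPM at 15 months and 305 ± 55.4 CPM at 3 months (-0.84 ± 0.25). The ages did not overlap in these 3 genes, which had the smallest p-values of the list. Their adjusted p in edgeR lay between 0.177 and 0.201. In the list 4 of the 17 genes tested were higher and 2 lower without overlap, beside 16.3% of all genes tested.

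Inflammatory and interferon genes gave no call with all pools. Of 18 cytokine and NF-kB target genes tested, 9 were higher, with a median of 0.01. Ccl4, a chemokine, had a log2 ratio of 1.08 ± 0.41 and Osm, the cytokine oncostatin M, one of -1.15 ± 0.35. Of 15 interferon-stimulated genes tested, 4 were higher, with a median of -0.24. Without the third 3-month pool 8 of 16 were higher with a median of -0.07, and among members with Plac8 5 of 13 with a median of -0.18. Isg20, an RNA exonuclease, stood at 33.1 ± 10.1 CPM at 15 months and 103 ± 39.8 CPM at 3 months (-1.48 ± 0.38, edgeR adjusted p = 0.118). Irf7 stood at 202 ± 27.9 CPM at 15 months and 411 ± 218 CPM at 3 months. Ifitm3, an antiviral membrane protein, stood at 5755 ± 440.1 CPM at 15 months and 7141 ± 585 CPM at 3 months. These 3 genes had the smallest p-values of the list, and the ages did not overlap in them. Among the 15 tested 1 was higher and 4 were lower without overlap, beside 16.3% of all genes tested.

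Of 12 mitochondrially encoded genes tested, 11 were higher at 15 months, with a median of 0.42 and no call. Without the third 3-month pool 11 of 12 were higher with a median of 0.61, and 5 were called, mt-Co3, mt-Nd1, mt-Atp6, mt-Cytb and mt-Nd4. In that fit 45 of all 3167 genes (1.42%) were called. Among members with Plac8 10 of 11 were higher with a median of 0.24 and none was called. mt-Nd1 stood at 1398 ± 75.2 CPM at 15 months and 878 ± 57.0 CPM at 3 months (0.68 ± 0.15, edgeR adjusted p = 0.0866). mt-Nd3 stood at 241 ± 30.9 CPM at 15 months and 122 ± 15.5 CPM at 3 months (1.04 ± 0.25). Both encode subunits of respiratory complex I, and the ages did not overlap in either. With all pools 5 of the 12 tested were higher without overlap and none lower, beside 16.3% of all genes tested that did not overlap. The share of mitochondrial UMIs moved with the same pools, as given above, and its part was not tested. Of 22 immediate early and dissociation genes tested 12 were higher and none called. The chaperone genes Dnaja1 (-0.97 ± 0.21, edgeR adjusted p = 0.0759) and Hsp90aa1 (-0.50 ± 0.18) were among 4 of the 22 that lay lower without overlap. None of the 22 lay higher without overlap. Of 11 glycolysis genes tested 5 were higher, with Eno1 at -0.66 ± 0.24 and Ldha at -0.45 ± 0.20. For the Fc and pattern receptors 11 of 20 tested were higher, and Pirb, an inhibitory receptor, stood at 325 ± 12.5 CPM at 15 months and 174 ± 44.9 CPM at 3 months (0.85 ± 0.23, adjusted p = 0.177). Cell cycle genes were mostly too low to test, 3 of 20, and Mdm2, the p53 inhibitor, stood at 58.4 ± 2.35 CPM at 15 months and 119 ± 36.7 CPM at 3 months (-1.04 ± 0.30, adjusted p = 0.187).

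The list of macrophage differentiation genes moved with the members without Plac8 and with 1 pool. With all members, 16 of 18 genes tested were higher at 15 months, with a median of 0.50 and Gpnmb as the 1 call. With members that had a Plac8 UMI, 14 passed the filter, 5 were higher, the median was -0.19 and none was called. Without the third 3-month pool, and with no Plac8 limit, 18 of 18 were higher with a median of 0.90 and 4 called, beside 1.42% of all genes called. The Plac8 limit was not combined with leaving out that pool.

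With Plac8 required, 10 of 2337 genes (0.428%) passed, 3 (0.128%) higher and 7 (0.3%) lower, and 7 of them were among the 8 calls above. Among the higher calls is Chil3, which the gate used, so nothing is read from it. Cd83 was among the others, and was chosen here after its values were seen. Cd83, a surface protein of activated antigen-presenting cells, stood at 223, 197 and 243 CPM at 15 months, against 477, 386 and 732 CPM at 3 months (-1.23 ± 0.25, adjusted p = 0.0476). With all members the adjusted p was 0.101.

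MHC class II genes, which present peptides to T helper cells, split the members. The summed UMIs of Cd74, H2-Aa, H2-Ab1 and H2-Eb1 reached 50 or more in 4 of 27, 64 of 151 and 16 of 37 members of the 15-month pools, and in 0 of 25, 0 of 13 and 7 of 11 members of the 3-month pools. The third 3-month pool stood apart with a median of 342 such UMIs, against 3 and 2 in the other 3-month pools and 4, 28 and 22 in the 15-month pools. In the same pool Apoe stood at 23010 CPM and Fn1, fibronectin, at 52.3 CPM, while the other 5 pools lay at 2412 to 12182 CPM for Apoe and 634 to 1226 CPM for Fn1. Cd74, the invariant chain, stood at 2229, 6680 and 6369 CPM at 15 months, against 963, 762 and 18721 CPM at 3 months, overlapping fully. The log2 ratio of Cd74 was -0.40 ± 1.504 with all pools and 2.56 without the third 3-month pool, called in neither fit. Of the 8 MHC class II genes listed 7 were tested and 3 were higher with all pools, and all 7 were higher without that pool, with a median log2 ratio of 2.56 and H2-DMb1 called, where 52.1% of all genes tested were above 0.

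**Figure D5:**
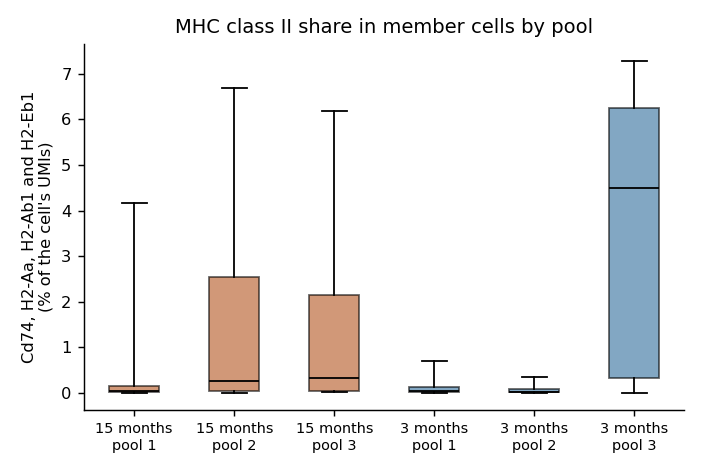
Share of Cd74, H2-Aa, H2-Ab1 and H2-Eb1 among the UMIs of each classical monocyte in percent, by pool, as median, quartiles and full range. Medians are 0.04, 0.27 and 0.34% in the 15-month pools and 0.04, 0.02 and 4.49% in the 3-month pools.

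Each pool was divided at its median MHC class II share to describe what goes with these genes. High and low are relative to the pool. The high part had a median share of 0.22% in pool 1 of 15 months and 0.14% in pools 1 and 2 of 3 months. The low part of pool 3 of 3 months had a median of 0.34%, and the 2 parts of that pool held only 5 and 6 cells. Of 1521 genes at 100 CPM or more in either part, 38 (2.50%) were higher and 57 (3.75%) lower in the MHC class II-high part in every pool. Higher beside the class II genes themselves were Lair1, an inhibitory collagen receptor, at 149 CPM in the high and 52.7 CPM in the low part, the membrane proteins Tmem176a at 394 and 162 CPM and Tmem176b at 570.0 and 265 CPM, the chemerin receptor Ccrl2 at 276 and 121 CPM, and Dab2, an endocytic adaptor, at 114 and 50.2 CPM. Mrc1 was higher in 6 of 6 pools as well, at 87.5 and 25.9 CPM. Lower were Hp, at 395 CPM in the high and 963 CPM in the low part, Fn1, at 388 and 945 CPM, F13a1, at 313 and 529 CPM, and Mgst1, a glutathione transferase, at 253 and 571 CPM. Ly6c2 (1107 and 1232 CPM), Ccr2 (675 and 729.6 CPM) and Plac8 (3430 and 3636 CPM) were not on 1 side in every pool.

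Without the third 3-month pool 45 of 3167 genes (1.42%) passed the age test, 15 (0.474%) higher and 30 (0.947%) lower, among them all 8 calls made with every pool. Higher were Lgmn, the lysosomal protease legumain (507 CPM at 15 months, against 245 and 246 CPM in the remaining 3-month pools, log2 ratio 1.05), Aif1, the macrophage protein Iba1 (517 CPM, against 216 and 190 CPM, 1.36), H2-DMb1 and Fabp5, of whose 3356 UMIs at 15 months 3052 lie in the 20 cells without Plac8. Lower were Srgn, a granule proteoglycan (2607 CPM, against 7159 and 8195 CPM, -1.55), Tgm2, a transglutaminase (133 CPM, against 530.1 and 547 CPM, -1.88), Osm and S100a10. In the pool left out, Srgn stood at 1891 CPM and Aif1 at 792 CPM, unscaled. These genes were taken after their values were seen.

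Whether the age effects were those of the class was tested as the difference between classes within pools. Against non-classical monocytes 0 of 3356 genes passed in edgeR, with 254 at an unadjusted p under 0.05, and 25 passed without the third 3-month pool. In non-classical monocytes Kpna4 had a log2 age ratio of 0.06, and the difference was -1.35 ± 0.32 (adjusted p = 0.183). Against C1q macrophages 31 of 9122 genes (0.340%) passed, 22 (0.241%) with a higher and 9 (0.0987%) with a lower age ratio in classical monocytes. Where genes needed a mean of 50 CPM 1 passed. For Kpna4 the difference was -0.94 ± 0.30 (adjusted p = 0.181), with a log2 age ratio of -0.32 in C1q macrophages. Gpnmb differed by 3.92 and Cd63 by 1.80, while among members with Plac8 these differences were 1.68 and -0.74 and did not pass. S100a4 and S100a6, small calcium-binding proteins, differed by 1.01 and 0.90, and the chemokines Ccl6 and Ccl9 by 0.88 and 0.98, all passing with and without the Plac8 limit. In that order their log2 age ratios were 0.14, 0.09, 0.19 and 0.19 in classical monocytes. In C1q macrophages they were -0.78, -0.77, -0.69 and -0.79, with no call in either class. These 4 genes were taken after their values were seen. As only 1 gene passed at a mean of 50 CPM, most of these 4 were not called there.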

How the data were processed

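The deposited files held raw UMI counts per gene and cell, with hashtag counts, for 2 libraries of ovarian leukocytes. Per the file headers the matrices came from Cell Ranger 4.0.0, whereas the submitters' processing notes name Cell Ranger 7.0.0, FastQC 0.11.4 and the genome build mm10. Members, gene lists and limits were chosen with earlier results of these data known.

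Cells were filtered and gated on raw counts in Python 3.11.15. UMIs were summed per pool, and age was tested with edgeR 4.0.16 (quasi-likelihood test, TMM scaling, Benjamini-Hochberg adjustment over all genes tested) in R 4.3.3 on all 6 pools, without covariates. The difference between classes of cells was tested as an interaction that kept the pool as a block. Comparisons of classes, and of members split by MHC class II or Plac8, were not tested, since the gates set them. Genes were named by a rule: those past an adjusted p of 0.05 at a mean of 50 CPM, the 3 smallest p-values of each list, markers, and the 10 largest ratios each way between classes (8 each way in the MHC class II split). Some genes are not reported here. Other members of a list were given as such, and the text says where genes were taken after their values were seen.

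Alternatives were other limits of the gate, thinning to 3000 UMIs, other hashtag limits, leaving out each pool, a replicate block, RLE scaling, DESeq2 1.42.0, other filters, and, added after seeing the data, no Arg1 limit, no C1q limit, fewer than 50 MHC class II UMIs, and a Plac8 UMI. Tested on simulated data for the age comparison, 38.9% of genes changed 2-fold (2669 genes tested) and 98.3% of genes changed 4-fold (2713 genes tested) were recovered. The changed genes had a mean of at least 50 CPM, every gene was given the same dispersion, and no pool stood apart from the others. The deposited data differ in this, so the rates do not carry over to them. Doublet calling marked 7 of 4347 and 3 of 2232 cells, none a member, and was treated as not having worked, so no doublets were removed. Coordinates are of GRCm38 with the GENCODE M21 annotation.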

Additional observations from a re-analysis of the deposited data

Results flagged for a closer look

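The age ratio of 8 named genes differed between classical monocytes and C1q macrophages by a test of the difference itself (edgeR interaction, adjusted p under 0.05). Nearly all calls of this test were lost where genes needed a mean of 50 CPM, as given above, so most of these 8 genes were not called there. As log2 ratios of classical monocytes minus those of C1q macrophages, Pou2f2, a lymphoid and myeloid transcription factor, differed by -1.08 and Hp by -1.47. Higher in classical monocytes were the differences of Gpnmb at 3.92, Cd63 at 1.80, Ccl4 at 1.34, Lgals1, a galectin, at 1.33, Gm42418 at 0.84 and AY036118 at 2.06. The difference of Hp came with an age ratio of 1.85 in C1q macrophages and 0.22 in classical monocytes, neither past the test. Its level in C1q macrophages was low, at 15.3 ± 12.2 CPM (unscaled, mean ± SD over 6 pools). Among members with a Plac8 UMI the differences of Gpnmb (1.68), Cd63 (-0.74) and Pou2f2 (-0.96) did not pass, and those of Hp (-1.29), Ccl4 (1.08) and Lgals1 (0.83) did. Both classes of a pool come from the same library.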

How the results depend on the processing

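The age effect in classical monocytes gave 8 calls. It gave 4 with at least 3 Ly6c2 and Chil3 UMIs, 13 with at least 8 (4 pools left), 45 with C1q under 3 UMIs (5 pools left), 21 with fewer than 50 MHC class II UMIs (5 pools left), 34 with no limit on Arg1, 5 with no limit on C1q, 16 with DESeq2, 39 with no filter on low counts, and 3 without globin, ribosomal protein, mitochondrial genes, Gm42418 and AY036118. Leaving out 1 pool gave 5 to 45 calls, with 5 without the first or the second pool of 15 months and 45 without pool 3 of 3 months. The difference from non-classical monocytes gave 0 calls, and 0 to 25 with 1 pool left out (1 without pool 3 of 15 months, 2 without pool 1 and 25 without pool 3 of 3 months). The difference from C1q macrophages gave 31 calls, 1 at a mean of at least 50 CPM, and 20 to 79 with 1 pool left out (20 without pool 2 of 15 months, 51 without pool 1 and 79 without pool 3 of 3 months). In the alternatives marked with 5 pools left, pool 3 of 3 months had fewer than the 10 members required, so they differ from the fit with all members in that pool as well as in the limit. With at least 8 Ly6c2 and Chil3 UMIs pool 2 of 3 months also fell short, with 7 members. Pool 1 was then the only pool of 3 months, so the count of calls given for that limit is not read. The causes were not tested.

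The log2 ratio of the share of classical monocytes lay between 0.09 and 1.47 and never passed. The call of Kpna4 was lost in 9 of 24 alternatives and that of Gpnmb in 4 of 22. Over all alternatives, lost or kept, the log2 ratio lay from -1.35 to -1.11 for Kpna4 and from 0.63 to 5.57 for Gpnmb. The 24 alternatives of Kpna4 take in the limit of at least 8 Ly6c2 and Chil3 UMIs, with 1 pool of 3 months. Of 802 pairs of a gene and an alternative over 34 genes, 14 turned direction, none of them in a called gene. With no limit on Arg1 these were Plac8 (0.17), Cd63 (-0.081) and Ifitm3 (0.0028). With at least 8 Ly6c2 and Chil3 UMIs they were Hp (-0.058), F13a1 (-0.092) and Cd74 (2.37), with pool 1 as the only pool of 3 months. With the gate after thinning (5 pools left) they were Cd63 (-1.89), Fabp5 (-1.19) and Cd74 (2.03). F13a1 stood at -0.022 and Cd74 at 0.28 with no limit on C1q, and Cd74 at 2.49 with C1q under 3 UMIs, and at -0.94 to 2.56 with 1 pool left out, above 0 without pool 3 of 3 months.

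The labels give no pairing of pools with the same number in both ages. Deviations of such pools correlated at 0.13, 0.03 and 0.19, and those of pools with different numbers at -0.15 to 0.09. Of the 6 pools, 5 correlated best with the pool of their own number, and whether the numbers mark a pairing was not tested. A replicate block gave 10 calls, a log2 ratio of 0.99 for the share, and 0.93 for Cd74. The alternative without called doublets was not run. The 49 members of 3 months, 11 in the third pool, limit the precision of every age ratio.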
